A study of Oryza sativa Indica Group with 12 samples.

Results

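A small set of rice anther transcripts was abundant in the 2 middle stages of anther development and low both before and after them. The set was chosen by its measured values: a rice probe set belonged to it when its mean signals in meiotic anthers and in anthers with single-celled pollen were both over 500 and each was at least 10-fold over the means of the youngest and of the oldest anthers. Of 57258 rice probe sets on the array, 61 met the rule, and 5901 had means over 500 in both middle stages. The anthers came from field-grown wild type plants of IR64, an indica variety, with no treatment, and anthers of several plants were bulked for each array. There were 3 arrays for each of 4 stages: pre-meiotic anthers of 350 to 450 µm (PMA), meiotic anthers of 500 to 850 µm, up to the tetrads (MA), anthers of 900 to 950 µm with single-celled pollen (SCP), and anthers of 2000 to 2500 µm with tri-nucleate pollen (TPA). Signal is the deposited GC-RMA intensity on the linear scale, and the study takes a gene with a signal at or under 10 as absent. The MA arrays were handled by a different person from the rest, and the effects of handling and of meiosis cannot be told apart.

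The tapetum is the innermost wall layer of the anther. Its cells surround the meiocytes and later the microspores, and they make and secrete lipids, phenolics and proteins from which the outer pollen wall is built. The wall polymer sporopollenin is made from fatty acids that are hydroxylated by cytochrome P450 enzymes, activated and extended by polyketide synthases, and small lipid transfer proteins are thought to carry wall precursors across the locule. The tapetum then dies by programmed cell death. In anthers with tri-nucleate pollen, the study still found the transcript of a LEM-1 family gene in the tapetal layer.

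A gene could be given a name or a described function for 22 of the 61 probe sets. They comprise 2 regulators, 4 sporopollenin enzymes, 7 lipid transfer and other secreted proteins and 9 other enzymes and proteins of cell physiology. The other 39 were given no name or function here and are called without described function: 25 were paired with 1 gene, 1 with several and 13 with none. The label does not mean that a gene is uncharacterised. For CYP704B2 and LTPL45 the array's gene table and the study's locus list point to different chromosomes, and the names here follow the locus list. A further probe set, paired with LOC4337062, shares its entry in the gene table with the CYP704B2 probe set, and whether the 2 measure 1 gene could not be told.

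Arrays of one stage did not always match in this set. SCP replicate 3 lay above both other SCP arrays in 46 of the 61 probe sets, while 44.0% of the 5901 probe sets over 500 in MA and SCP did so. It was at least 2-fold over the mean of SCP replicates 1 and 2 in 14 of the 61, against 1.05% of those 5901. In 10 of these 14, the mean of replicates 1 and 2 was below the MA mean. Over the whole set, replicate 3 was the highest SCP array in 23 of 26 members with that mean below the MA mean and in 23 of 35 with it above. The median absolute log2 difference over the set was 0.05 between SCP replicates 1 and 2, and 0.48 between either of them and replicate 3. PMA replicate 2 was the lowest PMA array in 32 of the 45 members with a PMA mean over 10, against 30.4% of all rice probe sets over 10 in PMA, with a median of 0.554 of the mean of the other 2 arrays. Without SCP replicate 3 the rule no longer kept 7 of the 61: CRP2, calreticulin, GLN1;3, LOC4324640, LOC4332070 and 2 probe sets without a paired gene. Counts of calls are given with and without these arrays, and so are the values of some of the members that rest on them.

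**Figure D1:**
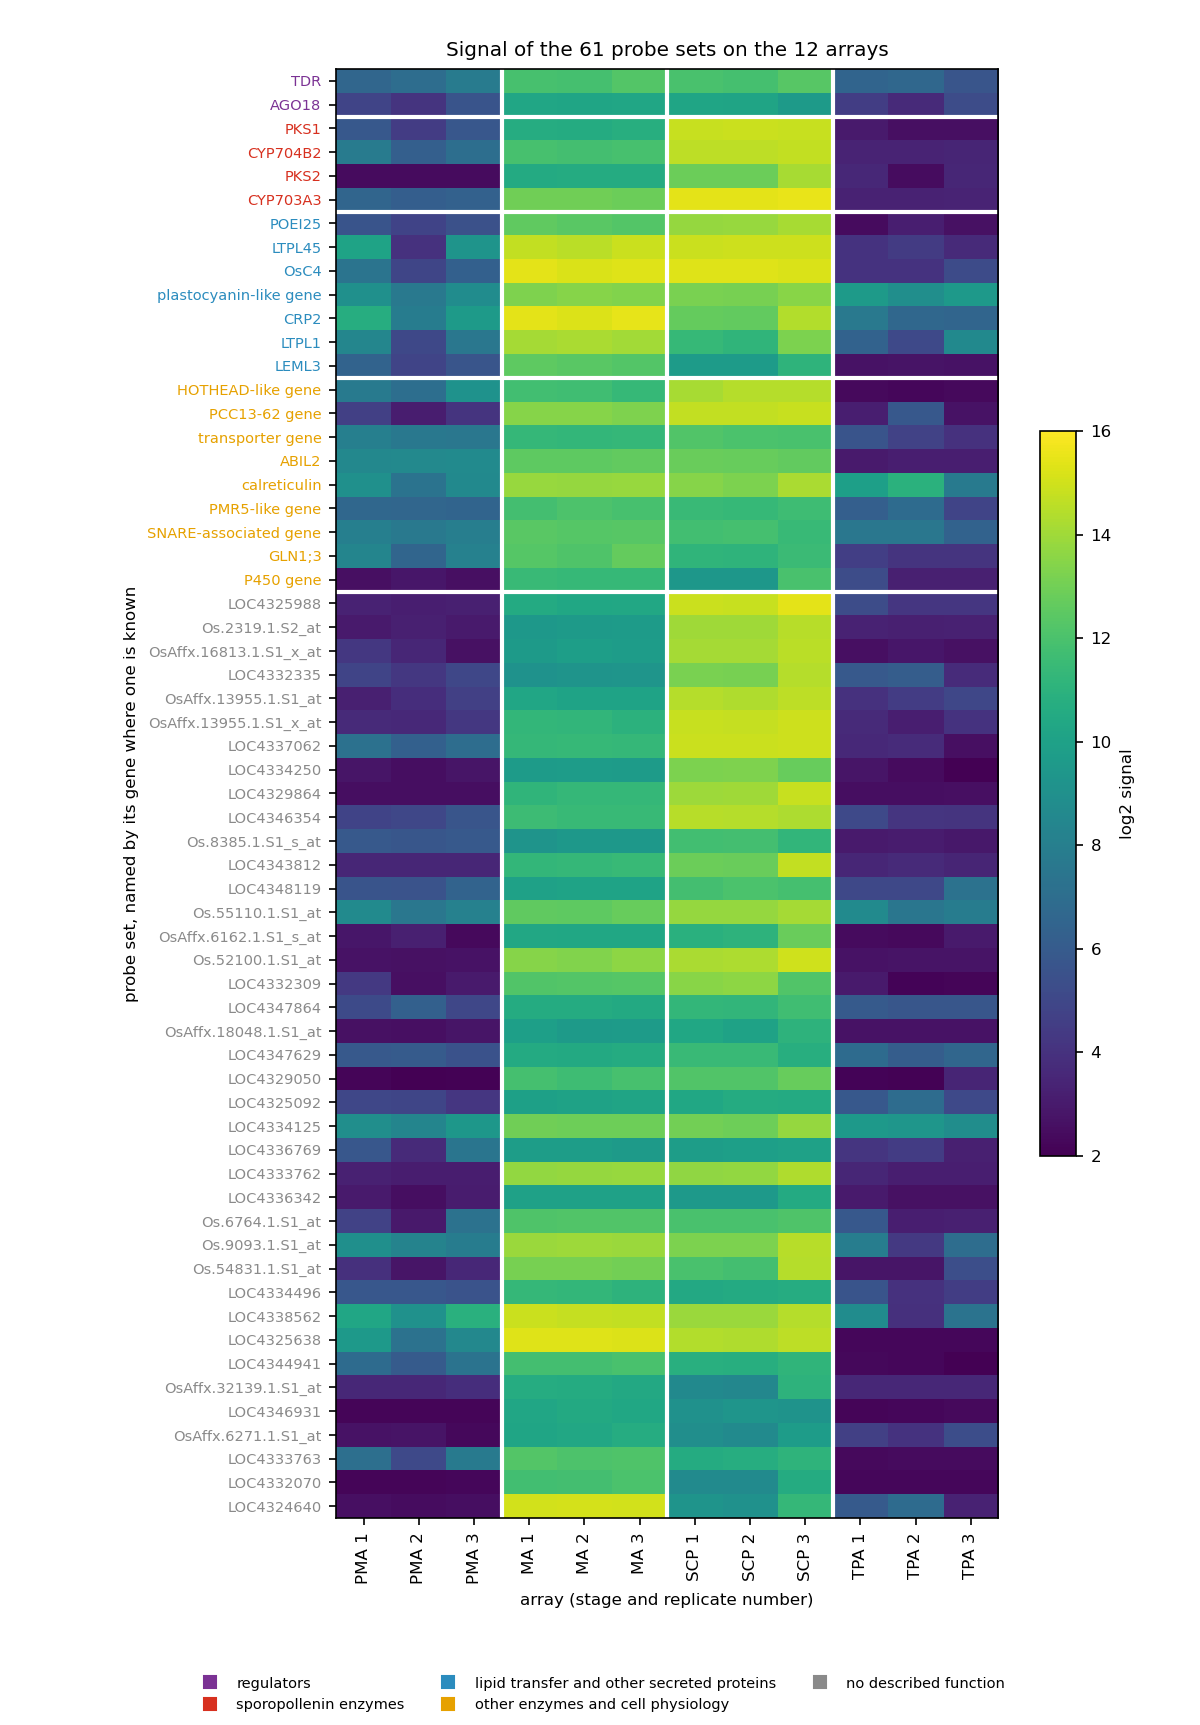
Log2 signal of the 61 probe sets (rows, grouped by role and ordered by the SCP minus MA difference within each group) on the 12 arrays (columns, in stage order). Every row is brighter on each of the 6 MA and SCP arrays than on any PMA or TPA array, and SCP replicate 3 is visibly brighter than SCP replicates 1 and 2 in rows such as the P450 gene and LOC4324640.

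The levels over the 4 stages follow from the rule and are given as a description. The median of the stage means over the 61 probe sets was 48.5 for PMA, 3630.4 for MA, 9745 for SCP and 17.2 for TPA. As a share of all signal from rice probe sets on an array, the set made up 0.0234 to 0.0584% on PMA arrays, 2.36 to 2.45% on MA arrays, 3.48 to 4.52% on SCP arrays and 0.0181 to 0.0274% on TPA arrays. The lower of the MA and SCP means exceeded the higher of the PMA and TPA means by a median of 36.1-fold, with a range of 10.2-fold to 1719-fold. With low means under 10 set to 10 the median was still 36.1-fold and the highest was 1412-fold, and for the 12 members at or under 10 in both low stages the fold against 10 is a lower bound. On every one of the 61, the lowest MA or SCP array was above the highest PMA or TPA array. In bulk anthers, fewer cells of a type and less RNA per cell cannot be told apart, so a low level in PMA or TPA can be either.

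The members nearest to the fold limit were the HOTHEAD-like gene at 10.2-fold, LOC4336769 at 10.4-fold and GLN1;3 at 10.5-fold. Just outside it were LOC4351314 at 9.47-fold, LOC4325816 at 9.14-fold and a probe set without a paired gene at 8.80-fold. Nearest to the level limit, LOC4346931 and LOC4332335 had lower means of 581 and 595 and a probe set without a paired gene had 578. LOC4347101, LOC4325328 and LOC4348120 missed it with 495, 484 and 455.

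The rule treats MA and SCP alike, so it does not say which of them is the higher. The question was whether the signal of these members, high in both stages by the rule, was higher or lower in SCP than in MA. SCP was tested against MA with limma over all rice probe sets. A difference was called when it was at least 2-fold and its p, adjusted by Benjamini-Hochberg, was no higher than 0.005. In SCP 18 of the 61 were higher and 3 were lower, which is 29.5% and 4.92% of the set. The 18 stand for 17 genes, since CYP704B2 and LOC4337062 share a table entry and each unpaired probe set is counted as a gene. Of all rice probe sets 3.85% were called higher and 4.47% lower, and of the 5901 probe sets over 500 in both stages 4.95% and 7.13%. Neither background was chosen for large differences between stages, as the set was, so the shares are not like for like. The median log2 difference, SCP minus MA, was 0.29 over the set, -0.01 over all rice probe sets and -0.05 over those 5901. Without SCP replicate 3, 16 were higher and 5 lower, with a median of 0.24. Of all rice probe sets 4.04% and 3.84% were then called, and of the 5901 4.46% and 6.49%. Of the 21 calls, 18 were made both with and without that array. No single array changed the call of 14 of the 21.

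All 4 sporopollenin enzymes of the set were higher in SCP than in MA, and no other role group had all its members called. The cytochrome P450 CYP703A3, which hydroxylates medium-chain fatty acids in the first steps of the pathway, stood at 43437, 44551 and 48035 on the SCP arrays and at 7868, 7967 and 7535 on the MA arrays. The groups were far apart, at 5.82-fold (log2 difference 2.54, standard error 0.08, adjusted p = 6.96e-08 from limma). CYP704B2, the second P450 of the pathway, which acts on the end carbon of longer fatty acids, had 25222, 25019.6 and 26449.8 in SCP and 3874, 3659.8 and 3854 in MA (log2 difference 2.75, standard error 0.32, adjusted p = 0.000279). LOC4337062, the probe set with the same table entry, had 30439 ± 783 in SCP and 2605 ± 82.1 in MA (SD, n = 3 each), and its call is counted among the genes without described function.

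Type III polyketide synthases, which lengthen the activated fatty acids, showed the same direction. PKS1 had 29549, 29665 and 28554 in SCP, against 1609.7, 1544 and 1775 in MA, which is 17.8-fold (log2 difference 4.16, standard error 0.32, adjusted p = 2.46e-05). PKS2 had 7349, 7305 and 18713 in SCP, against 1489, 1582 and 1563 in MA (log2 difference 2.70, standard error 0.39, adjusted p = 0.00105). Its SCP replicate 3 was 2.55-fold over the mean of the other 2, but even these were above every MA array. Without SCP replicate 3 PKS2 remained called (log2 difference 2.25, adjusted p = 0.000858), while leaving out any 1 MA array took its adjusted p past the limit, to between 0.00533 and 0.00572. The calls of CYP703A3, CYP704B2 and PKS1 held without any 1 of the 12 arrays.

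**Figure D2:**
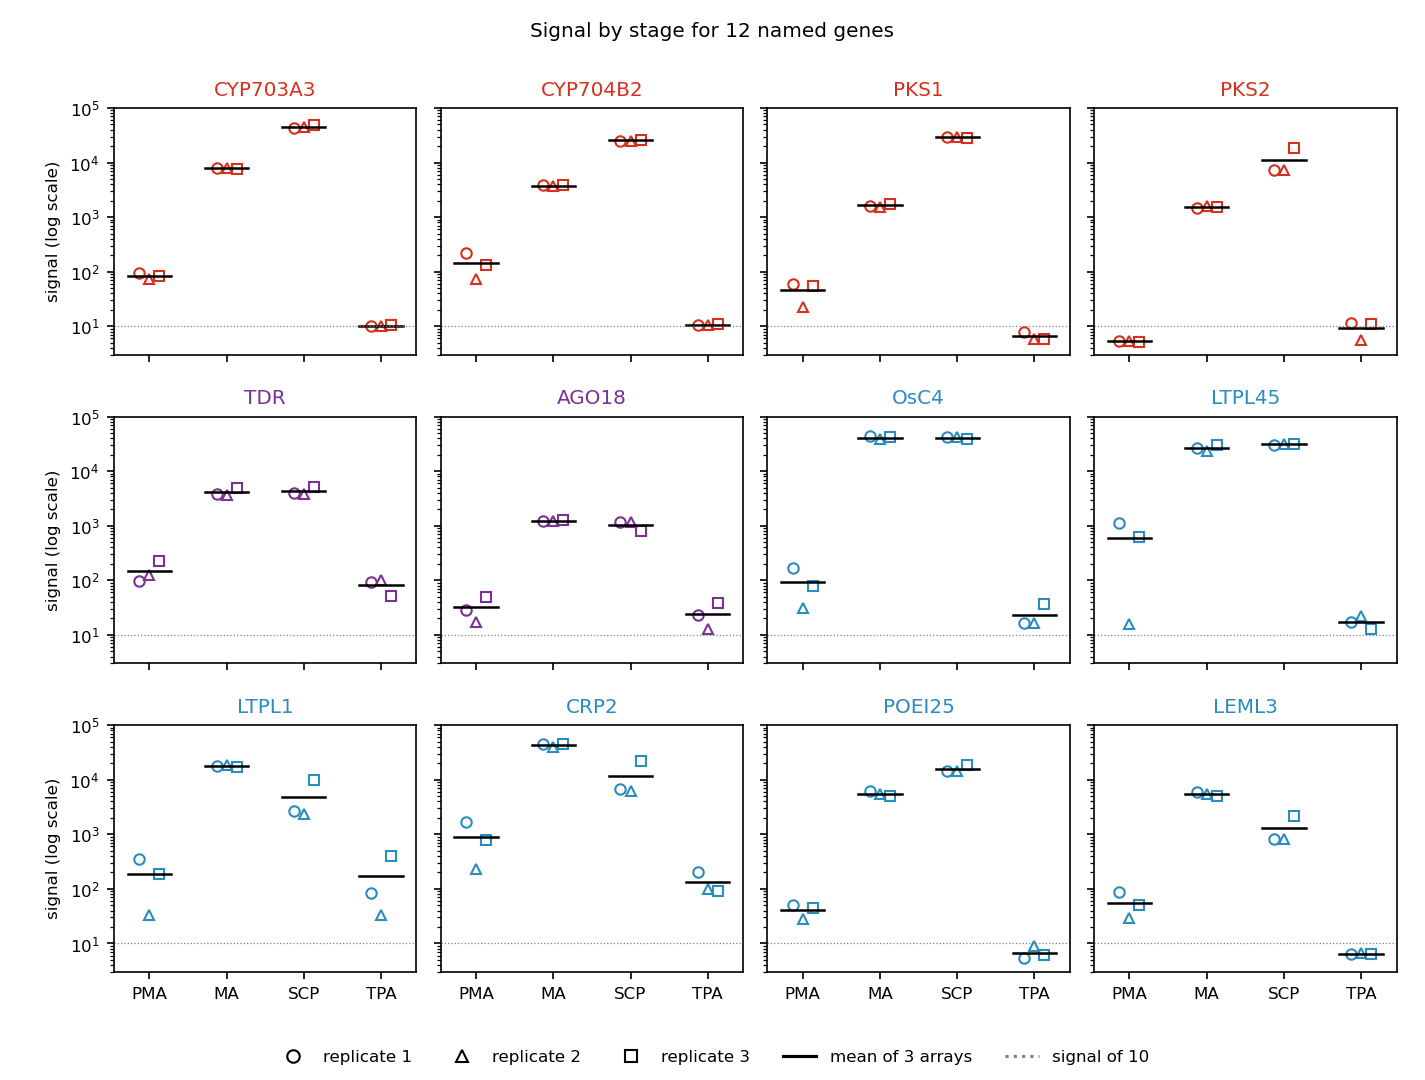
Signal (log axis) on each array by stage for 12 named genes, with symbols for the replicate number and a line at the mean of 3 arrays; red marks sporopollenin enzymes, purple regulators and blue lipid transfer and other secreted proteins. The 4 red genes stand higher in SCP than in MA, while TDR, AGO18, OsC4 and LTPL45 differ little between the 2 stages, with log2 differences from -0.25 to 0.22, and SCP replicate 3 (square) lies well above the other SCP arrays for LTPL1, CRP2, LEML3 and PKS2.

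Neither regulator passed the test between the 2 stages. TDR, the basic helix-loop-helix factor needed for timely tapetal cell death in rice, had 3977, 3768 and 5187 in SCP and 3855, 3711 and 4834 in MA (log2 difference 0.06, standard error 0.35, adjusted p = 0.967). Its SCP and MA arrays overlapped. AGO18, an argonaute of grasses that binds small RNAs, had 1188, 1174 and 795 in SCP and 1247, 1197 and 1255 in MA (log2 difference -0.25, standard error 0.45, adjusted p = 0.778). Its SCP arrays all lay below its MA arrays, but only replicate 3 was well under them.

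The lipid transfer and secreted proteins spread in both directions, and 1 of the 7 was called. OsC4, a lipid transfer protein of the tapetum, was at 41392, 41559 and 38469 in SCP and 44299, 38068 and 41579 in MA, with overlapping arrays (log2 difference -0.03, standard error 0.55, adjusted p = 0.993). LTPL45, of the same family of small lipid-binding proteins, was at 31201 ± 679 in SCP and 26846 ± 2928 in MA (SD, n = 3 each; log2 difference 0.22, standard error 1.31, adjusted p = 0.965). All its SCP arrays lay above all its MA arrays. The large error of LTPL45 comes with its PMA arrays, since 1 fit over 12 arrays shares their spread. POEI25, of the Ole e I pollen allergen and extensin family, was the one called member, with 14311, 14561 and 18260.0 in SCP and 6156, 5506 and 4969 in MA (log2 difference 1.50, standard error 0.24, adjusted p = 0.00219). Its call was lost when any 1 of the 6 MA and SCP arrays was left out, with an adjusted p between 0.00698 and 0.0117.

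A further 3 genes of this group had lower SCP than MA means without being called, and in each the third SCP array was far above the other 2. LTPL1, another lipid transfer family member, had 2683, 2322 and 9707 in SCP and 17615, 18956 and 17213 in MA (log2 difference -2.19, standard error 1.08, adjusted p = 0.242). CRP2, a cysteine-rich family protein precursor, had 6701, 6294 and 21589 in SCP and 44467, 39581 and 45326 in MA (log2 difference -2.15, standard error 0.73, adjusted p = 0.0792). LEML3, of the anther-specific LEM1 family, had 835, 837 and 2163 in SCP and 5871, 5413 and 4973 in MA (log2 difference -2.24, standard error 0.44, adjusted p = 0.0061). For each of the 3, all SCP arrays lay below all MA arrays. Without SCP replicate 3 LEML3 was called lower (log2 difference -2.69, adjusted p = 0.00135), while LTPL1 (log2 difference -2.84, adjusted p = 0.168) and CRP2 (log2 difference -2.73, adjusted p = 0.0378) were not. The plastocyanin-like gene, with a copper-binding domain, had 9881 ± 1438 in SCP and 10523 ± 605 in MA (SD, n = 3 each; adjusted p = 0.911 from limma).

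Of the 9 other enzymes and proteins of cell physiology, 1 was called. The HOTHEAD-like gene, related to an Arabidopsis oxidoreductase of cutin lipid synthesis, had 18719, 22617 and 22483 in SCP and 3415, 3368 and 2639 in MA (log2 difference 2.76, standard error 0.42, adjusted p = 0.00155). Its call was lost when any 1 MA or SCP array was left out, with an adjusted p between 0.00604 and 0.00864, although its log2 difference stayed between 2.64 and 2.85. The cytochrome P450 gene LOC_Os08g05620 was set apart by 1 array, with 692, 675 and 4091 in SCP and 2865, 2615 and 2665 in MA (log2 difference -1.13, adjusted p = 0.394 from limma). Without SCP replicate 3 its log2 difference was -1.99, and it was still not called (adjusted p = 0.0401 from limma).

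The remaining 7 genes of this group passed the test in neither direction. Glutamine synthetase GLN1;3, which fixes ammonium into glutamine, had 2246, 2163 and 2995 in SCP and 5085, 4559 and 6547 in MA (log2 difference -1.13, standard error 0.43, adjusted p = 0.117). Calreticulin, a calcium-binding chaperone of the endoplasmic reticulum, had 11182, 9754 and 18844 in SCP and 14484, 13933 and 14434 in MA, where only the third SCP array exceeded the MA arrays. The PCC13-62 gene, named after a desiccation-related protein of a resurrection plant, had 26818, 26876 and 29306 in SCP and 11359, 11237 and 9983 in MA, without overlap, but its adjusted p was 0.3 from limma, with a wide spread among its TPA arrays in the same fit. Fitted on the MA and SCP arrays alone, it was called, with an adjusted p of 0.000321. ABIL2, of a family that in Arabidopsis belongs to an actin-regulating complex, differed little, with 6783 ± 456 in SCP and 5978 ± 282 in MA (SD, n = 3 each; log2 difference 0.18, standard error 0.07, adjusted p = 0.132). The SNARE-associated gene, the PMR5-like gene and the transporter gene had log2 differences of -0.67, -0.44 and 0.75.

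**Figure D3:**
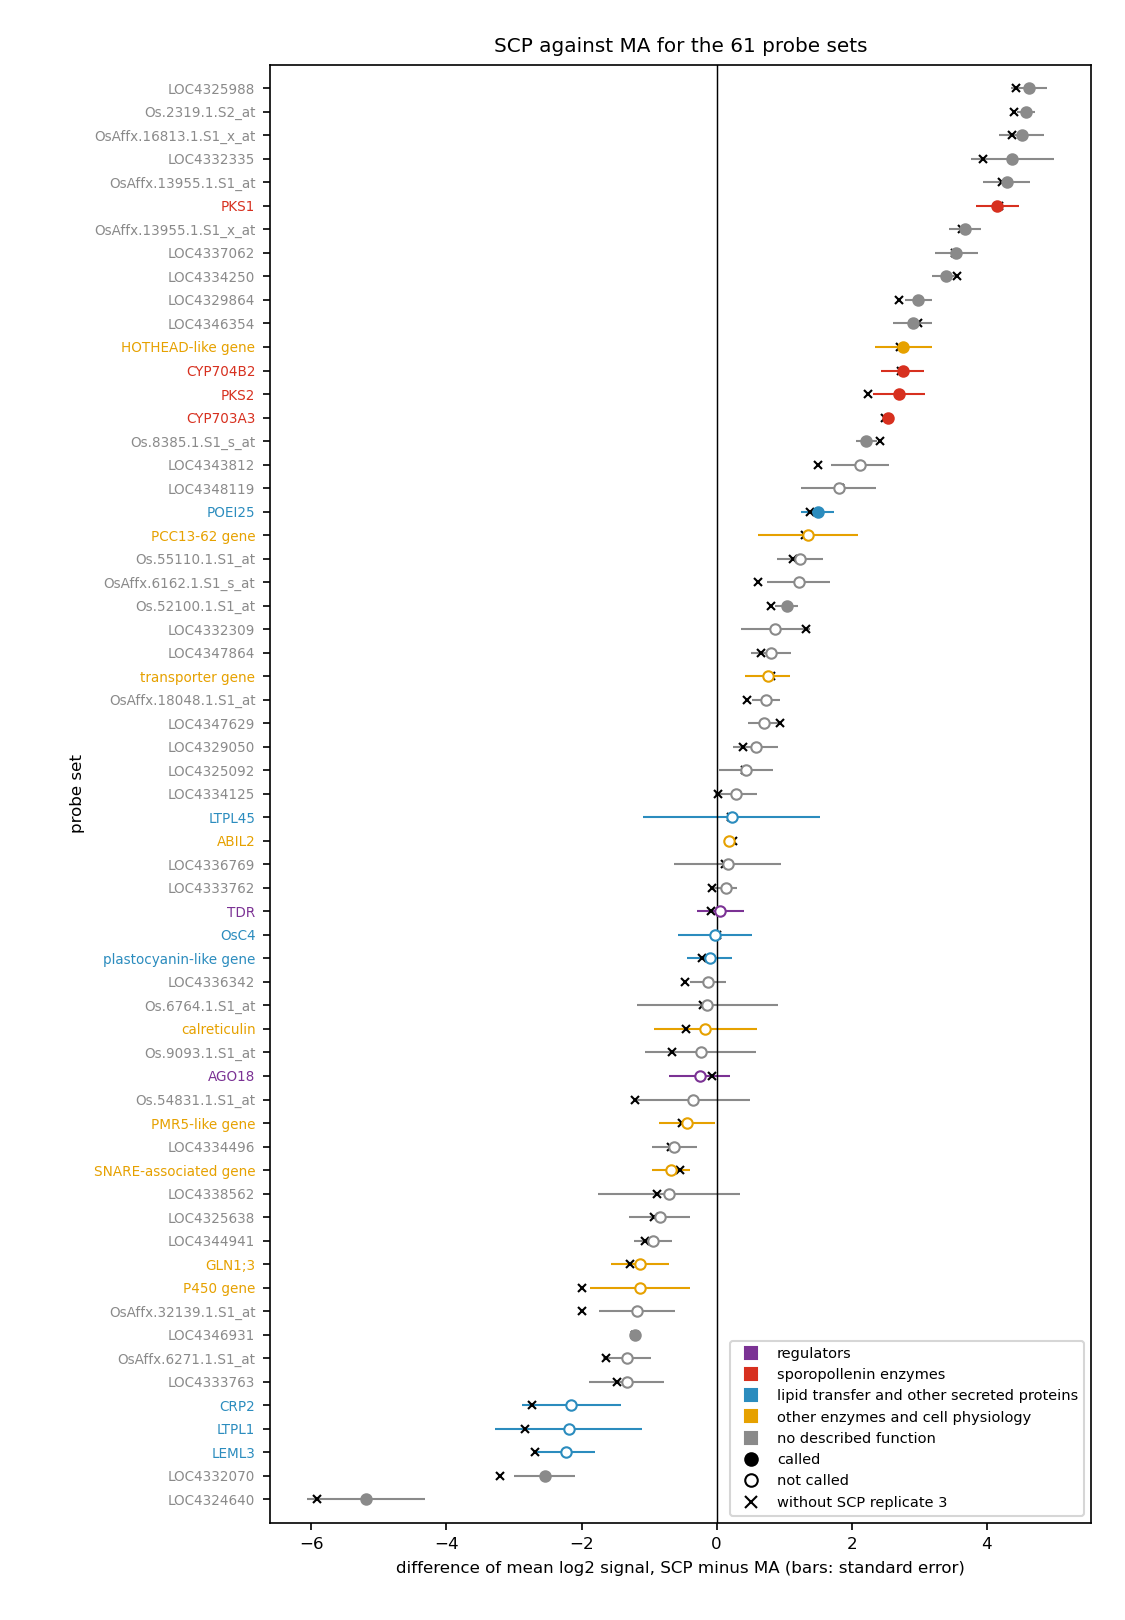
Difference of mean log2 signal, SCP minus MA, for each of the 61 probe sets, with bars for the standard error, filled points for called differences and crosses for the value without SCP replicate 3. The 18 called rises include all 4 sporopollenin enzymes in red, and the called falls are LOC4324640, LOC4332070 and LOC4346931.

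Among the 39 probe sets without a described function, 12 were higher in SCP and 3 were lower, and without SCP replicate 3 there were 12 and 4. Those named here were picked after their values were seen. LOC4325988 was at 30468, 29179 and 44361 in SCP and 1521, 1301 and 1333 in MA, 24.6-fold higher (log2 difference 4.62, standard error 0.27, adjusted p = 4.14e-06). LOC4334250 was at 9621, 9899 and 6864 in SCP and 819, 851 and 816 in MA (log2 difference 3.39, standard error 0.19, adjusted p = 3.81e-06), and unlike most of the set it had its lowest SCP value in replicate 3. LOC4346354, at 21669 ± 1790.2 in SCP and 2889 ± 224 in MA, and LOC4329864, at 20379 ± 7723 in SCP and 2465 ± 149 in MA (SD, n = 3 each), were also called higher. None of these 4 calls depended on a single array. That of LOC4332335, at 9452, 8895 and 22404 in SCP and 556, 601 and 628 in MA, did, since it was lost without MA replicate 1 or 2. So did that of 1 probe set with no paired gene, at 19462, 19855 and 31963 in SCP and 11119.8, 10359 and 12412 in MA, which was lost without SCP replicate 3 or any 1 MA array.

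The 3 called falls were of unlike kinds. LOC4324640 had 596, 540.3 and 2553 in SCP and 33976, 34774 and 33685 in MA, the largest fall of the set (log2 difference -5.19, standard error 0.87, adjusted p = 0.00262). It met the rule only through SCP replicate 3, without which its log2 difference was -5.91, and its call was lost without any 1 of the 8 PMA, MA or first 2 SCP arrays. LOC4332070 had 410.4, 409.9 and 1594 in SCP and 3517, 3612 and 4219.6 in MA (log2 difference -2.55, standard error 0.45, adjusted p = 0.00333), and its call held only with all 12 arrays or without SCP replicate 3. LOC4346931 had 543, 622 and 577 in SCP and 1263, 1465 and 1289 in MA (log2 difference -1.20, standard error 0.07, adjusted p = 3.28e-06), with closely grouped arrays, and no single array changed its call.

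Markers of other anther cells moved between these stages as well. Over 5 measured meiocyte genes of a list of 9, the summed signal was 157 to 392 in SCP, with the highest sum in replicate 3, and 4064 to 4299 in MA. None of the 5 was a member of the set. Over 2 genes of the green wall layers the sum was 2513 to 7687 in SCP, with the lowest in replicate 3, and 1539 to 1615 in MA. The meiosis gene PAIR2 made up most of the meiocyte sum in MA, with 3477, 3679 and 3516 on the MA arrays. It had 73.3, 78.0 and 288 on the SCP arrays. DMC1 (means of 457 in MA and 63.5 in SCP), SDS (84.9 and 7.48), MEL1 (57.1 and 16.1) and PAIR1 (14.4 and 5.56) were also lower in SCP. DMC1 and MEL1 were highest in PMA, at 569 and 7716. The chlorophyll-binding protein gene CAB2R had 6986, 6993 and 1982 on the SCP arrays. The part of these cells, and of the stage of the anthers on SCP replicate 3, in the differences above was not tested.

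The rule does not say either which of the 2 low stages is the lower. TPA was lower than PMA in 14 of the 61 and higher in 2, which is 23.0% and 3.28% of the set. By the same count of genes as above, the 14 stand for 13. Of all rice probe sets 16.0% were called lower and 8.58% higher, and of the 5901 over 500 in MA and SCP 42.6% and 11.4%, so the set's share of falls lay between these backgrounds. The median log2 difference, TPA minus PMA, was -0.29 over the set, 0.02 over all rice probe sets and -0.85 over the 5901. Without PMA replicate 2, 18 were lower and 1 higher, against 14.9% and 8.13% of all rice probe sets and 40.8% and 11.0% of the 5901. Shifting all arrays to a common median over probe sets with a stage mean over 10, which raised TPA by 0.50 and lowered PMA by 0.23 on the log2 scale, turned the set's median to 0.44 and gave 14 lower and 8 higher. The rule keeps both stages at least 10-fold under MA and SCP, so these are comparisons of remaining signal.

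Transcripts at or under 10 were common at both ends: 23 of the 61 in TPA, 16 in PMA and 12 in both. In 11 the signal was over 10 in PMA and at or under 10 in TPA, and in 4 the reverse. Over 100 there were 9 in TPA and 20 in PMA. Of the 14 called lower, 9 had a TPA mean at or under 10, so that the size of their fall has only a lower bound, taken here as the log2 difference with values under 10 set to 10. All 14 were still called lower with that floor. None of the 12 at or under 10 in both stages was called.

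Sporopollenin enzymes were above the signal of 10 before meiosis and near or under it at maturity, with PKS2 as the exception. CYP703A3 had 10, 10.1 and 10.4 in TPA and 93.9, 72.8 and 82.6 in PMA (log2 difference -3.02, standard error 0.08, adjusted p = 4.05e-09 from limma). CYP704B2 had 10.4, 10.4 and 11.0 in TPA and 225, 74.2 and 135 in PMA (log2 difference -3.63, standard error 0.32, adjusted p = 1.17e-05). PKS1 had 8.02, 5.95 and 5.87 in TPA and 58.6, 22.6 and 55.3 in PMA (log2 difference -2.68, standard error 0.32, adjusted p = 0.000108), or a log2 difference of -2.06 with values under 10 set to 10. In these 3 no TPA array reached a PMA array, though PMA replicate 2 was the lowest PMA array each time. PKS2 was at or near the floor at both ends, with 11.6, 5.55 and 11.2 in TPA and 5.34, 5.34 and 5.23 in PMA (log2 difference 0.76, standard error 0.39, adjusted p = 0.134), and it was called higher in TPA only under the common-median shift.

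Among the 7 secreted protein genes, 2 were lower in TPA with all arrays and 5 without PMA replicate 2. POEI25, with 5.35, 8.87 and 6.21 in TPA and 50.3, 28.5 and 44.3 in PMA, and LEML3, with 6.34, 6.66 and 6.45 in TPA and 87.4, 29.8 and 51.6 in PMA, were lower in TPA with or without it. LTPL45 had 16.9, 22.0 and 12.8 in TPA and 1131, 15.9 and 612 in PMA, so that PMA replicate 2 lay among the TPA arrays and the other 2 far above them. It was not called with all arrays (log2 difference -3.73, standard error 1.31, adjusted p = 0.045) and was called without PMA replicate 2 (log2 difference -5.63, adjusted p = 1.38e-06). OsC4, with 16.8, 16.6 and 36.9 in TPA and 167, 30.9 and 78.0 in PMA, and CRP2, with 206, 100.5 and 93.2 in TPA and 1705, 234 and 785 in PMA, did likewise, with log2 differences of -1.76 and -2.45 on all arrays and -2.39 and -3.22 without that replicate. LTPL1, at 84.5, 33.7 and 405 in TPA and 346, 33.2 and 189 in PMA, and the plastocyanin-like gene, at 789, 490.2 and 722 in TPA and 516, 199 and 440.3 in PMA, kept signal in both stages and were not called. Under the common-median shift the plastocyanin-like gene was called higher in TPA.

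Of the 9 other described genes, 4 were lower in TPA. ABIL2 was at 7.94, 8.96 and 9.2 in TPA and at 375, 392 and 417 in PMA, with closely grouped arrays (log2 difference -5.51, standard error 0.07, adjusted p = 2.33e-11). The log2 difference of ABIL2 was -5.30 with values under 10 set to 10. The HOTHEAD-like gene had 5.04, 4.82 and 5.03 in TPA and 219, 136 and 566 in PMA (log2 difference -5.69, standard error 0.42, adjusted p = 4.03e-06), and its log2 difference was -4.68 with that floor. GLN1;3, with 19.6 ± 4.07 in TPA and 235 ± 125 in PMA, and the transporter gene, with 30.9 ± 17.1 in TPA and 216 ± 41.2 in PMA (SD, n = 3 each), were also called. Calreticulin kept the most TPA signal relative to PMA among the described genes over 100 in both stages, at 965, 1975 and 207 in TPA and 516, 163 and 397 in PMA, with arrays that overlapped (log2 difference 1.19, standard error 0.76, adjusted p = 0.218). The regulators TDR, at 92.0, 102 and 50.7 in TPA and 98.9, 127 and 227 in PMA, and AGO18, at 23.0, 12.7 and 38.0 in TPA and 29.0, 17.0 and 50.1 in PMA, were not called.

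**Figure D4:**
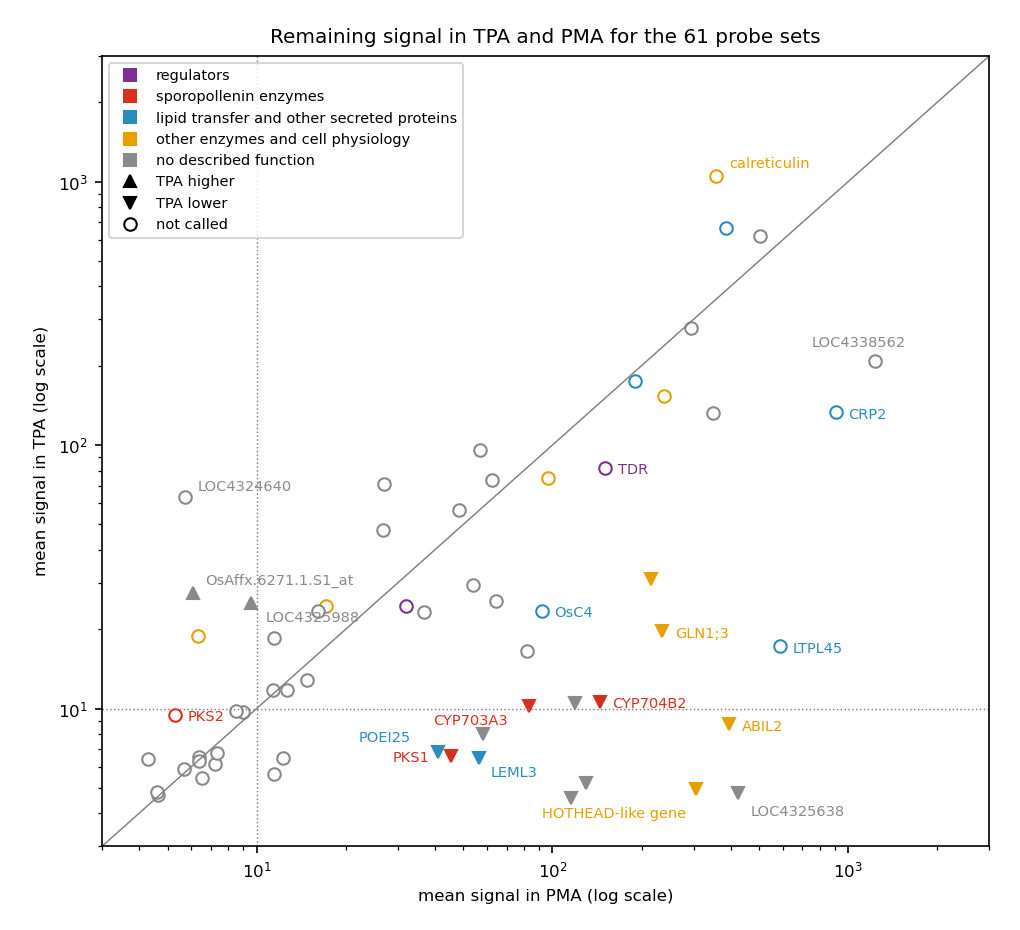
Mean signal in TPA against mean signal in PMA (both log axes, n = 3 each) for the 61 probe sets, with triangles for called differences and dotted lines at the signal of 10. Most points lie at or below the diagonal, 12 sit under 10 on both axes, and the 2 upward triangles are OsAffx.6271.1.S1_at and LOC4325988.

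Of the probe sets without described function, 5 were lower in TPA and 2 were higher. LOC4325638 had 4.77, 4.78 and 4.78 in TPA and 742, 154 and 373 in PMA (log2 difference -6.19, standard error 0.45, adjusted p = 3.37e-06), and its log2 difference was -5.13 with values under 10 set to 10. LOC4333763 and LOC4344941 were both under 10 in TPA, with 5.22 ± 0.00874 and 4.56 ± 0.459, and at 130.1 ± 91.2 and 115 ± 48.7 in PMA (SD, n = 3 each). The 2 called higher had little signal in either stage: OsAffx.6271.1.S1_at had 25.4, 16.8 and 40.1 in TPA and 6.51, 6.73 and 4.99 in PMA (log2 difference 2.10, standard error 0.35, adjusted p = 0.000985). LOC4325988 had 37.8, 18.6 and 18.9 in TPA and 10, 9.13 and 9.46 in PMA (log2 difference 1.31, standard error 0.27, adjusted p = 0.00346), and its call was lost without any 1 of 9 of the 12 arrays. With values under 10 set to 10, neither was called. Over 5 mature pollen genes, none of them a member, the summed signal was 25066 to 28980 in TPA and 930 to 1057 in PMA. Most of the PMA sum was SBE, with a mean of 969 in PMA and 3528 in TPA. CPK29, CPK6, EXPA26 and MST5 had PMA means of 4.70, 5.17, 8.06 and 5.60, all under 10. The part of the pollen's RNA in these differences was not tested.

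Features that the rule did not use were compared as well. The study lists genes found in pollen mother cells by others, chosen against seedlings and tricellular pollen. Signal around meiosis and a low level at maturity are thus built into that list, so it is not independent of the rule. It holds 23 of the 61 members, or 37.7%, against 3.29% of the 5901 probe sets over 500 in MA and SCP and 1.60% of all rice probe sets, and the members make up 2.51% of its 917 probe sets. Members were paired with 1 gene in 70.5% of cases, and the 5901 probe sets in 86.0%. Of all 57258 rice probe sets, 22436 were so paired, a smaller share than in either. Of 40 member genes that could be placed in the gene order of the RefSeq assembly ASM3414082v1, a single pair lay within 5 genes of each other, LOC4333762 and LOC4333763, which are direct neighbours. LOC4333762 was at 15851 ± 4244 in SCP and 14122 ± 636 in MA, and LOC4333763 at 1833 ± 337 in SCP and 4570.0 ± 243 in MA (SD, n = 3 each), and neither was called between these stages. A pair of members with no described function, OsAffx.13955.1.S1_at and OsAffx.13955.1.S1_x_at, share a design target and are not independent. Both were called higher in SCP than in MA. Suffixes that mark probes shared between transcripts were carried by 10 members, 4 with _x_at and 6 with _s_at, among them CYP704B2, PKS2, CRP2 and LTPL1, so that related transcripts may add to their signal.

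The set holds only a part of the known tapetum genes. Of 32 genes on lists of tapetum regulators, wall lipid enzymes, secreted proteins and cell death proteases, 22 were matched, and 7 were members: TDR, CYP703A3, CYP704B2, PKS1, PKS2, OsC4 and LTPL45. The others missed the window in different ways. GPAT3, a glycerol-phosphate acyltransferase and the one other matched gene of the 11 on the wall lipid enzyme list, was highest in PMA, at 539 ± 349, and had 34.1 ± 11.1 in MA and 35.5 ± 8.45 in SCP (SD, n = 3 each). OsC6, a lipid transfer protein, was at 10.5 ± 2.00 in PMA and still low in MA, at 36.4 ± 15.1, before 31319 ± 7434 in SCP and 118 ± 70.2 in TPA (SD, n = 3 each). RAFTIN1, a secreted protein that coats the microspore wall in cereals, came closer, with 405 ± 60.9 in MA and 8794 ± 1215 in SCP. EAT1, a basic helix-loop-helix factor that works with TDR, already had 798 ± 428 in PMA, with 873 ± 78.5 in MA and 8988 ± 696 in SCP. TIP2, another factor of this family, had 2062 ± 526 in PMA and 5826 ± 459.7 in MA and was lower again in SCP, at 488 ± 249. AP25, a protease of tapetal cell death, had 270.1 ± 22.4 in MA and 19227 ± 1632 in SCP. Over the 22 matched genes the highest stage mean was in SCP for 14, in MA for 4, in PMA for 3 and in TPA for 1. The last was RTS, of the secreted protein list, at 3007 ± 2096 in TPA (SD, n = 3). Its means were 4.79, 4.77 and 4.74 in PMA, MA and SCP.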

How the data were processed

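Anthers of 4 stages were measured on 12 Affymetrix rice arrays, 3 per stage. The deposited intensity of a probe set is a GC-RMA value, not log-transformed, for which the authors corrected the background, normalized the quantiles together with arrays of other tissues and summarised the probes. Depth has no meaning for arrays, and their number limits the precision. Of 57381 probe sets, 123 controls were left out. Values were taken to log2 and all 57258 rice probe sets were fitted over the 12 arrays in R 4.3.3 with limma 3.58.1 (lmFit, eBayes), with Benjamini-Hochberg adjustment, and called at 0.005 and 2-fold. Tested on simulated data for SCP against MA over 57258 probe sets, the fit called 56 of 100 probe sets changed by 1.5 on the log2 scale, 75 of 100 changed by 3 and 1 unchanged probe set. The simulation gave every stage the MA mean and 1 spread per probe set, and changed only these few probe sets, in SCP. Unequal spreads between stages and the many differences of the real data were left out. These rates therefore do not give the sensitivity of the calls made here. Each array is labelled a biological replicate, and p-values measure the spread between these bulked samples.

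The members, gene lists and tests were chosen with earlier results of these data known, and the stage levels of members were used by the rule and are not tested. Genes came from GEO's platform table, which pairs 22436 rice probe sets with 1 gene (17905 genes), from RefSeq (ASM3414082v1) and from the study's locus lists. Genes named in the text are the members with a symbol or a description and, as a description, those nearest to each limit; others were chosen after their values were seen. The lists cover tapetum, meiocytes, mature pollen and green wall layers. No clear pairing of arrays by replicate number was seen, and the main fit used none. Alternatives were other limits of the rule, quantile normalization, a median shift, floors and filters at a signal of 10, fits of 2 stages, an equal-variance t-test as chosen here, the one-way ANOVA of the methods as a first step, a replicate block and leaving out each array. Promoter and protein sequences were not analysed here.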

Additional observations from a re-analysis of the deposited data

How the results depend on the processing

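The rule gave 42 to 91 probe sets under other limits, means, scalings or filters and 55 to 64 without any 1 array, against 61. For SCP higher than MA, 14 to 19 members were called under the alternatives and 13 to 19 without 1 array, against 18. For SCP lower than MA the count of 3 became 1 with the t-test, 1 with the replicate block and 1 among members meeting the limits on every array, and was 1 to 5 without 1 array. For TPA lower than PMA the count of 14 became 9 with only the 2 stages fitted, 4 with the t-test and 8 among members meeting the limits on every array, and was 14 to 18 without 1 array. For TPA higher than PMA the count of 2 became 4 with quantile normalization, 8 with the median shift, 0 with values under 10 set to 10, 0 with 2 stages fitted, 0 with the t-test, 1 with the replicate block and 1 among members meeting the limits on every array, and was 1 to 4 without 1 array. The cause was not tested, except that the fits of 2 stages and the t-test use fewer arrays and the every-array set has 43 members. Same-numbered arrays of different stages correlated at -0.06 to 0.10 in their deviations and others at -0.09 to 0.08. These values gave no clear sign of pairing by number, and shared plants or handling were not tested. The replicate block gave 15 higher and 1 lower for SCP against MA and 14 lower and 1 higher for TPA against PMA. Of 748 repeated differences of the 22 named genes, 715 stayed on their side of the threshold, 22 lost and 11 gained a call. No difference that was called in either fit changed sign. Some uncalled ones did, such as LTPL1 for TPA minus PMA, from -1.29 to 0.51 over the fits without 1 array.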
